A study of Homo sapiens with 27 samples.

Results

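The AP-1 transcription factors described here are 10 genes: JUN, JUNB and JUND of the JUN family, FOS, FOSB, FOSL1 and FOSL2 of the FOS family, and the related factors ATF3, BATF3 and MAFF. They were chosen by symbol alone, from the first column of the count tables of 3 human prostate cancer cell lines. All 10 were listed in each table, among 24379 symbols for 22Rv1, 23532 for DU145 and 23462 for PC3, and all 10 passed the filter on low counts in each line. FOSL1 in 22Rv1 and BATF3 in PC3 did so through knockout libraries alone, so a call for them in those lines was partly built into the filter. Bulk mRNA sequencing gave 9 libraries per line in 3 groups of 3. One group of each line had the WT genotype and carried control gRNA #1. The other two had the genotype RIPK2 knockout and carried either RIPK2 gRNA #1 (22Rv1) or RIPK2 gRNA #2 (DU145 and PC3), or RIPK2 gRNA #10 (every line). RIPK2 is a kinase that acts beneath the NOD receptors of innate immunity and feeds into NF-kB and MAP kinase signalling. The labels name no other edit, drug or stimulus in any group. They do not say whether a knockout population is 1 clone or a pool of edited cells, or whether replicate libraries came from separate cultures, so the p-values measure the spread between these libraries, which may be technical.

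AP-1 proteins bind DNA as pairs held together by a leucine zipper. A JUN protein can pair with another JUN protein or with a FOS protein, whereas FOS proteins need a partner of another family, and ATF3, BATF3 and the small Maf protein MAFF join related pairs. JUN, JUNB, FOS, FOSB and ATF3 are classic immediate early genes: their transcription is switched on within minutes of growth factor or stress signals through MAP kinases, and their mRNAs are short-lived. FOSL1 and FOSL2 are induced later and for longer, and FOSL1 is known as an abundant AP-1 subunit of invasive carcinoma cells.

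The promoters of the 4 members FOS, FOSB, JUN and JUNB are shown because these genes stood at least 2-fold above their replicates in each of 2 libraries that stand apart from the rest. Each line holds the 250 bases before the start of transcription, 5′ to 3′ on the gene's own strand, from RefSeq (GRCh38.p14). Capitals mark TGACG, the core of the site bound by CREB and ATF proteins, and TATAAA, the core of the TATA box, each searched on both strands.
FOS, chr14:75278578-75278827, plus strand: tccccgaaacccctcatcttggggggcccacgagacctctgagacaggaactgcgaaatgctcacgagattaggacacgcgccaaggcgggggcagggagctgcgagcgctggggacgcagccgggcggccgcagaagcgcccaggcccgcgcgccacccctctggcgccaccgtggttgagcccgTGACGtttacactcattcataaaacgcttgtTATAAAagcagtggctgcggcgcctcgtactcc
FOSB, chr19:45467746-45467995, plus strand: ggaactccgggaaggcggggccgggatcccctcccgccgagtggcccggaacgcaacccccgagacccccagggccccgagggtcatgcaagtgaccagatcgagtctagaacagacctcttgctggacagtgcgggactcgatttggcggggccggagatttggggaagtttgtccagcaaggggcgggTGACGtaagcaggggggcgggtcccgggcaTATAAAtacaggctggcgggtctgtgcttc
JUN, chr1:58784048-58784297, minus strand: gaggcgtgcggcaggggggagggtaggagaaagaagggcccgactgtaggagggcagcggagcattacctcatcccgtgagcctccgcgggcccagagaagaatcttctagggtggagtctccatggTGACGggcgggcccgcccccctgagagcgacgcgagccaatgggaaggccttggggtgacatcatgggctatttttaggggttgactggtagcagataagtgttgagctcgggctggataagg
JUNB, chr19:12791236-12791485, plus strand: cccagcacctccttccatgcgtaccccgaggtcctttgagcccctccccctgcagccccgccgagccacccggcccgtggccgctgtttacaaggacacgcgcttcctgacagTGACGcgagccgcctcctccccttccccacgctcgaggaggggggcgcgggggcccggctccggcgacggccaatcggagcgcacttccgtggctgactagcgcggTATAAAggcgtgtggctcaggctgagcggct
The first base of TGACG lay 64 bases before the start in FOS, 60 in FOSB, 123 in JUN and 137 in JUNB. TATAAA began 33, 30 and 31 bases before the start in FOS, FOSB and JUNB. The RefSeq table held promoters for 8 of the 10 members, all but FOSL1 and BATF3. TGACG was present in 7 of the 8, against 21.2% of all 35116 promoters over the same length, and TATAAA in 4 of the 8, against 10.7%. The 2 measures are unlike: a member counts if any of its promoters holds the motif, whereas the background is per promoter. The 8 members had 10 promoters in the table, as ATF3 and MAFF had 2 each. The TATAAA of ATF3 began 230 bases before the start. The full palindrome TGACGTCA, which contains TGACG, was present in 2, JUND and MAFF (1.65% of all promoters). The AP-1 site TGANTCA (6.57% of all promoters) and the CArG box of serum response factor (1.16%) had no match in these windows. A match here is a run of letters, not a measured binding site.

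Totals ran from 17958558 to 20650819 counts per library, and a count of 0 allows up to 3 counts, or 0.144 to 0.178 CPM (each count relative to its TMM-adjusted library size). RIPK2 mRNA had 296, 338 and 301 counts in the 22Rv1 control, 177, 154 and 140 with gRNA 1 and 108, 104 and 101 with gRNA 10. In DU145 it had 820, 926 and 891 counts in the control, 199, 274 and 221 with gRNA 2 and 723, 670 and 688 with gRNA 10. In PC3 the counts were 1191, 1192 and 1256 in the control, 441, 408 and 406 with gRNA 2 and 527, 588 and 579 with gRNA 10. The targeted mRNA was therefore below every control library in each knockout group, but only by a log2 fold change of -0.29 with gRNA 10 in DU145 (edgeR adjusted p 0.0614). These counts are of mRNA and do not show whether the protein was lost. There were 2 libraries unlike their group. A chi-square of gene counts against their own replicates gave 190 and 194 per degree of freedom for 22Rv1 gRNA 1 replicate 3 and 50.9 and 71.4 for DU145 gRNA 2 replicate 3, and at most 19.7 for any other pair of replicates. The first had 16.7% of its counts in mitochondrially encoded genes (1.92% and 2.10% in its replicates), and the second 2.89% (1.75% and 2.12%). They are called the libraries that stand apart. All 5 epithelial markers were expressed in every library. The summed leukocyte markers stayed at or under 6.04 CPM, and the defining leukocyte gene PTPRC never passed 6 counts.

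The order of the members differed between the lines. In control cells, levels per kilobase of exon (joint CPM of all 27 libraries divided by exon length) put JUND first in 22Rv1, at 40.2 CPM per kb, whereas FOSL1 came first in DU145, at 49.0, and in PC3, at 507. FOSL1 was last in 22Rv1, at 0.0183 CPM per kb. JUND, regarded as the constitutive JUN gene, was nearly level across the lines at 40.2, 41.8 and 44.0 CPM per kb. FOS and FOSB, the rapidly induced members, were low throughout: no control mean of either exceeded 1.42 CPM per kb.

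**Figure D1:**
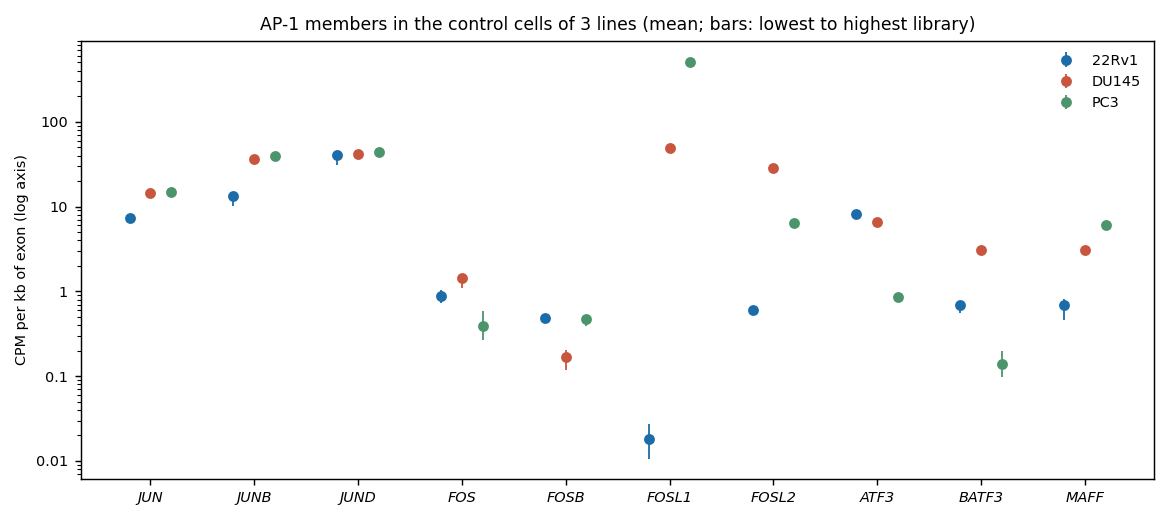
Level of each member in control cells, in CPM per kilobase of exon on a log axis, as the mean of 3 libraries with bars from the lowest to the highest library; the 22Rv1 FOSL1 bar is drawn from 0.02 CPM (before division by length) because its lowest library had 0 counts. FOSL1 spans the widest range, from 0.0183 in 22Rv1 to 507 in PC3, and JUND the narrowest.

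Between the controls, 1 member was higher and 5 lower in 22Rv1 than in DU145. Of all genes 75.9% differed there, 38.0% higher and 37.9% lower. Against PC3, 2 members were higher and 4 lower in 22Rv1, where 80.5% of all genes differed (41.1% higher and 39.4% lower). From DU145 to PC3, 3 members were higher in DU145 and 2 lower, beside 75.9% of all genes (38.8% and 37.1%). FOSL1 had 0, 1 and 1 counts in the 22Rv1 control, 1910, 1978 and 2032 in DU145 and 17319, 17703 and 18537 in PC3. The 3 groups were far apart: the DU145 control held 2673 times the 22Rv1 level (95% counting interval 740 to 22074), and PC3 was higher than DU145 (log2 difference of DU145 minus PC3 -3.37, edgeR adjusted p 1.11e-13). FOSL2 was ordered differently, with DU145 highest, at 205 joint CPM, PC3 next, at 46.0, and 22Rv1 lowest, at 4.31. All 3 pairs differed for FOSL2. MAFF was at 3.90 joint CPM in 22Rv1, 17.1 in DU145 and 34.3 in PC3, and again all 3 pairs differed. ATF3 ran the other way, at 33.2, 26.3 and 3.43 joint CPM, with every pair called, although the small step from 22Rv1 to DU145 (log2 difference 0.33, adjusted p 0.0128) lost its call without replicate 1 of the 22Rv1 control (0.26, adjusted p 0.0760). BATF3 was highest in DU145, at 8.30 joint CPM, then 22Rv1, at 1.85, and PC3, at 0.375.

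JUNB was lower in 22Rv1 (24.1 joint CPM) than in DU145 (65.8) and PC3 (72.4), and those lines did not differ beyond their spread (log2 difference -0.14, SE 0.35). JUND differed between no pair of controls. JUN stood at 25.7, 51.3 and 53.3 joint CPM in 22Rv1, DU145 and PC3, and FOS at 2.82, 4.61 and 1.25, with no pair called in the fit of all libraries. That fit includes the pair of libraries that stood apart, which belong to no control but enter the common estimate of the spread. Without them the same differences were called for JUN between 22Rv1 and either other line (-0.99 and -1.05) and for FOS in all 3 pairs. FOSB, at 2.68, 0.938 and 2.59 joint CPM, was then also called lower in DU145 than in both other lines (log2 differences 1.52 and -1.47). Cell line and any preparation batch cannot be told apart in these comparisons.

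**Figure D2:**
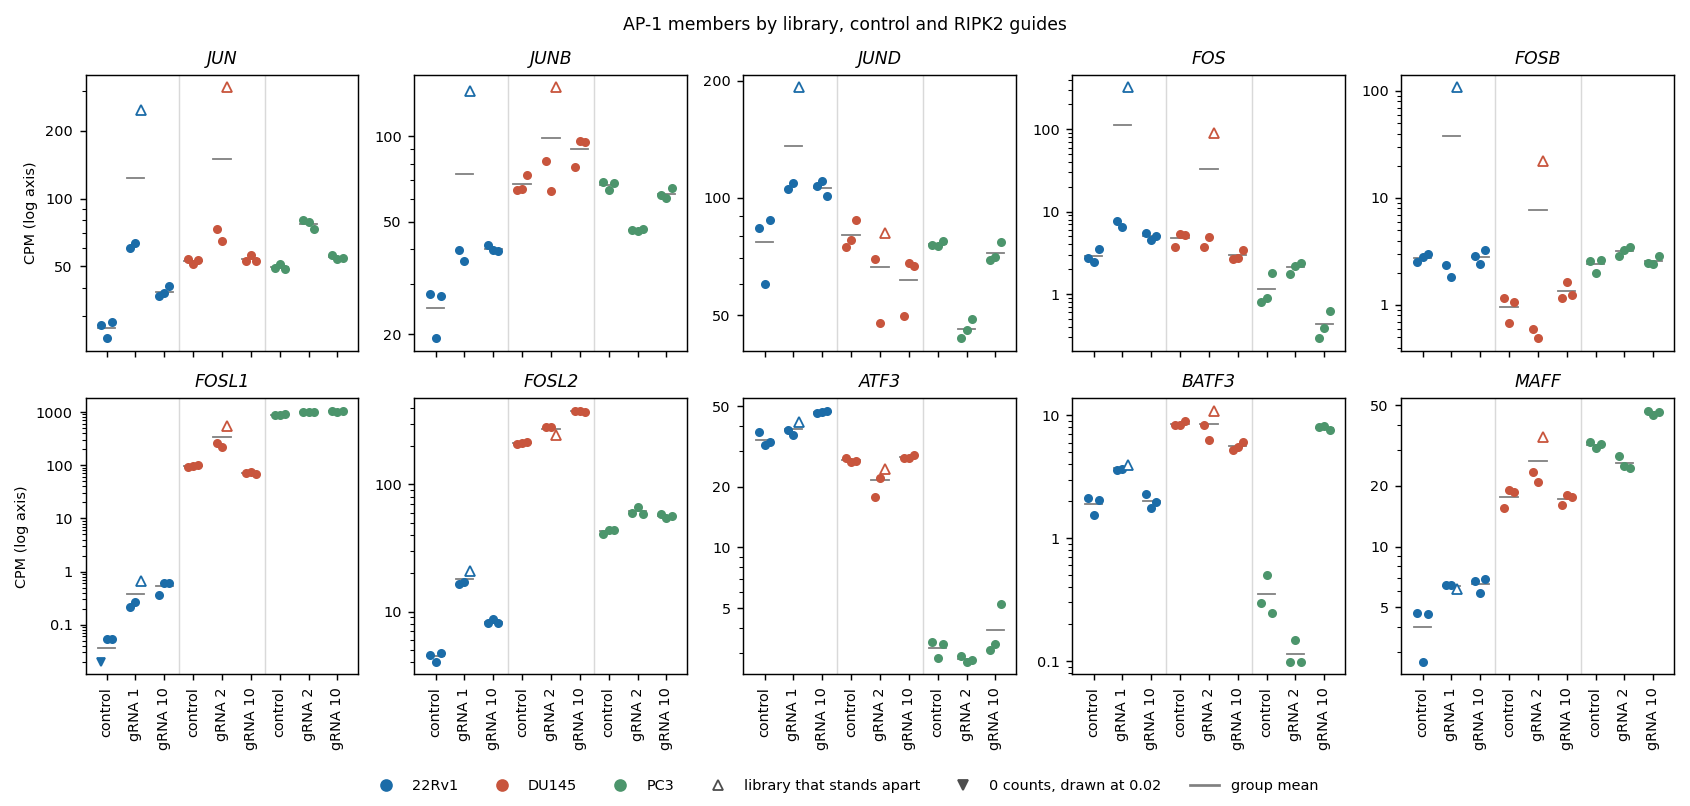
CPM of each member in every library (log axes), with the 9 groups along the x axis, colours for the lines, grey lines for group means and open triangles for the 2 libraries that stand apart. The triangles lie far above their own replicates for FOS, FOSB, JUN and JUNB, and BATF3 in PC3 moves from 0.348 CPM in the control to 7.90 CPM with gRNA 10.

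Within the lines, every member called against the control of 22Rv1 was higher than it. With gRNA 1, 8 of the 10 members rose and none fell, beside 48.5% of all genes called (25.6% higher and 22.9% lower). With gRNA 10, 4 rose and none fell, beside 40.6% (20.0% higher and 20.6% lower). In DU145, gRNA 2 gave 4 members higher and 1 lower, beside 34.0% of all genes (17.1% and 17.0%), and gRNA 10 gave 1 higher and 1 lower, beside 40.0% (20.2% and 19.8%). The DU145 gRNA 10 count was 6 without the library that stood apart, beside 58.4% of all genes, and 6 with only the compared groups in the fit. In PC3, where no library stood apart, gRNA 2 gave 5 members higher and 4 lower, beside 63.6% of all genes (32.1% and 31.5%), and gRNA 10 gave 5 higher and 2 lower, beside 73.5% (37.9% and 35.6%). The median log2 fold change of the members was 1.80 with gRNA 1 and 0.62 with gRNA 10 in 22Rv1, 0.56 with gRNA 2 and -0.0056 with gRNA 10 in DU145, and -0.0023 and 0.19 with the same guides in PC3. The medians over all genes were 0.02 with gRNA 1 in 22Rv1 and nearer to 0 in the other 5 contrasts. Both guides of a line were set against the same control libraries. Members called in one direction in each of the 2 contrasts were FOSL1, FOSL2 and MAFF in 22Rv1, FOSL2 in DU145, and JUN, FOSL1, FOSL2 and JUNB in PC3, the last of which fell. FOS, BATF3 and MAFF changed in opposite directions with the 2 guides in PC3. All these counts include FOSL1 in 22Rv1 and BATF3 in PC3, which passed the filter through knockout libraries alone. The share of all genes called with both guides, in the same or in opposite directions, is not given here. Which members were called with both guides is therefore not a result about the members.

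**Figure D3:**
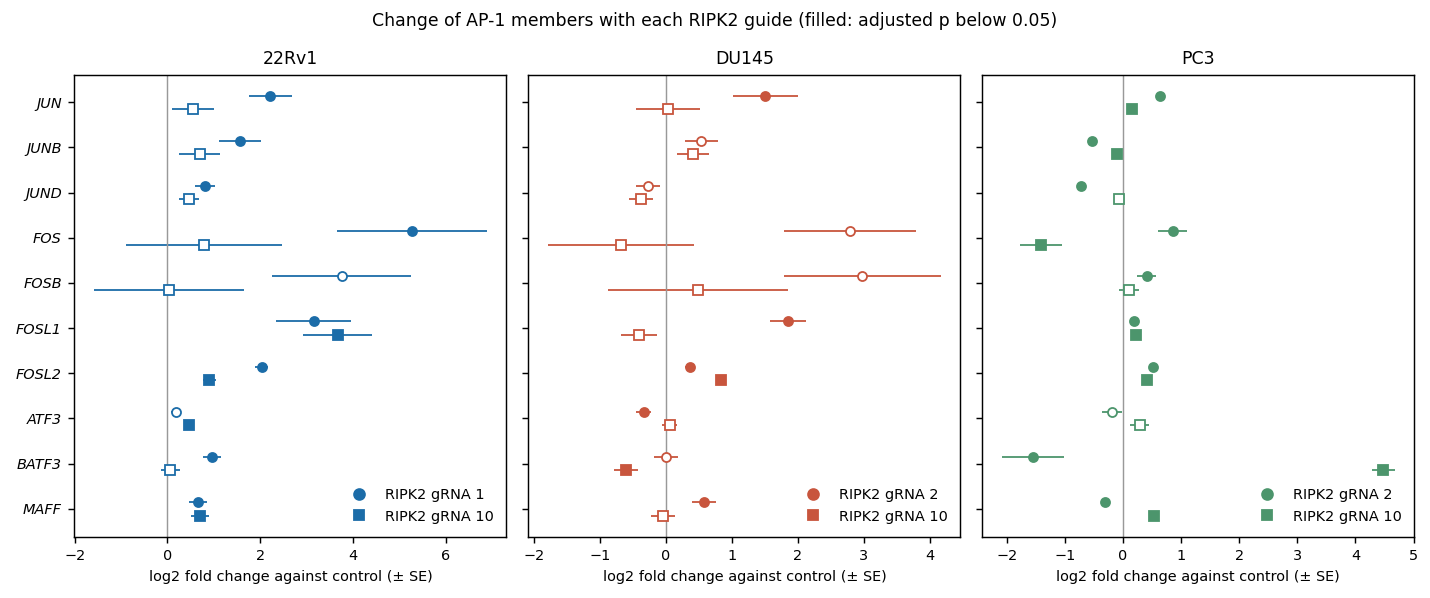
Log2 fold change of each member against the control of its line, with standard errors; circles stand for the first RIPK2 guide, squares for gRNA 10, and filled symbols for an adjusted p below 0.05. The x axes differ between the panels; FOSL2 is filled and to the right of 0 for both guides in every line.

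FOSL2, which encodes the FOS family protein FRA-2, rose in each of the 6 contrasts with a control. In 22Rv1 it had 86, 75 and 88 counts in the control, 310, 317 and 352 with gRNA 1 and 157, 169 and 158 with gRNA 10. The 3 groups were cleanly separated, with gRNA 1 highest. The log2 fold changes were 2.03 (adjusted p 1.14e-06 in edgeR, SE 0.14) and 0.90 (adjusted p 0.000406, SE 0.14). In DU145 the counts were 4285, 4404 and 4401 in the control, 5655, 5845 and 4439 with gRNA 2 and 7495, 7615 and 7447 with gRNA 10. Here gRNA 10 gave the higher level, and the lowest gRNA 2 library by CPM, replicate 3, was still above every control library. The log2 fold changes were 0.36 (adjusted p 0.00569, SE 0.08) and 0.84 (adjusted p 2.54e-05, SE 0.08). In PC3 the control had 815, 874 and 887 counts, gRNA 2 had 1218, 1339 and 1177, and gRNA 10 had 1217, 1138 and 1175. Both knockout groups lay above the control, by 0.52 (adjusted p 4.35e-10, SE 0.05) and 0.41 (adjusted p 4.68e-08, SE 0.05) on the log2 scale. None of the 6 calls was lost under any alternative tried.

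FOSL1 encodes FRA-1, the closest relative of FRA-2. It was barely detected in 22Rv1: 0, 1 and 1 counts in the control, 4, 5 and 11 with gRNA 1 and 7, 12 and 12 with gRNA 10. Every knockout library had more counts than every control library, yet all were few. Over the group, 20 counts against 2 gave a ratio of 10.4 (95% counting interval 2.51 to 91.3) for gRNA 1, and 31 against 2 gave 14.9 (3.80 to 129) for gRNA 10. Both contrasts were called (edgeR adjusted p 0.00831 and 0.00268). FOSL1 passed the filter in 22Rv1 through knockout libraries alone, so these calls were partly built in. In DU145, FOSL1 had 1910, 1978 and 2032 counts in the control, 5189, 4562 and 9992 with gRNA 2 and 1402, 1487 and 1385 with gRNA 10. It rose with gRNA 2 in all 3 libraries, by a log2 fold change of 1.85 (adjusted p 0.000809, SE 0.28), and by 1.34 without the highest library. With gRNA 10 all 3 libraries were below the control, with a log2 fold change of -0.42 (adjusted p 0.252, SE 0.27). That contrast was called once replicate 3 of gRNA 2 was left out (-0.42, adjusted p 0.000153). In PC3 the gene was at 889 ± 28.9 CPM in the control, 1010 ± 4.79 with gRNA 2 and 1039 ± 23.6 with gRNA 10 (SD, n = 3). These rises of 0.18 and 0.22 on the log2 scale were small, without overlap of the groups, and both were called (adjusted p 1.88e-05 and 5.82e-07).

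FOS, the founding member of its family, and FOSB, its paralog, carried the largest single-library values. FOS had 52, 46 and 65 counts in the 22Rv1 control, 144, 119 and 5459 with gRNA 1 and 106, 87 and 99 with gRNA 10. The library with 5459 counts is the one that stood apart. All 6 knockout libraries were above the control, whether or not it is counted. The log2 fold change with gRNA 1 was 5.27 (adjusted p 0.0292 in edgeR, SE 1.62), and 1.26 without that library (adjusted p 3.53e-05). With gRNA 10 it was 0.79 (adjusted p 0.744, SE 1.68), and 0.79 with an adjusted p of 0.000942 without it. Leaving out control replicate 1, 2 or 3 of 22Rv1 ended the gRNA 1 call (adjusted p 0.0692, 0.0563 and 0.0667), as did using no filter (adjusted p 0.0760) or only the compared groups (adjusted p 0.0689). In DU145 FOS had 77, 112 and 106 counts in the control, 75, 100 and 1639 with gRNA 2 and 53, 55 and 69 with gRNA 10. Replicates 1 and 2 of gRNA 2 were within the range of the control by CPM, and the whole difference lay in replicate 3. The log2 fold change was 2.79 (adjusted p 0.0524, SE 1.00), and turned to -0.14 (adjusted p 0.571) without it. The gRNA 10 libraries were all below the control, at a log2 fold change of -0.68 (adjusted p 0.656, SE 1.11) that was called without that same library (-0.68, adjusted p 0.00457).

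In PC3, which had no such library, FOS was rare: 16, 18 and 36 counts in the control, 36, 44 and 48 with gRNA 2 and 6, 8 and 13 with gRNA 10. The gRNA 2 libraries were the highest and the gRNA 10 libraries the lowest, with one control library reaching the gRNA 2 range. FOS rose with gRNA 2 by 0.85 (adjusted p 0.00381, SE 0.25) and fell with gRNA 10 to a log2 fold change of -1.41 (adjusted p 0.000825, SE 0.36). FOSB had 47, 52 and 56 counts in the 22Rv1 control, 44, 34 and 1827 with gRNA 1 and 55, 47 and 63 with gRNA 10. Apart from the 1827, the 3 groups overlapped or nearly so, and no contrast was called (adjusted p 0.0715 and 0.989). Without that library the gRNA 1 value turned from 3.76 to -0.41 (adjusted p 0.101). Leaving out replicate 1 or 2 of gRNA 1 instead made it a call (adjusted p 0.0380 and 0.0259). In DU145 FOSB had 24, 14 and 22 counts in the control, 12, 10 and 402 with gRNA 2 and 23, 33 and 25 with gRNA 10. The gRNA 2 value of 2.98 (adjusted p 0.0761) became -0.82 (adjusted p 0.0685) without the library of 402. In PC3 FOSB rose slightly with gRNA 2, from 52, 40 and 53 to 58, 66 and 70 counts (0.41, adjusted p 0.0294, SE 0.16), and that call was lost with DESeq2 (adjusted p 0.107) and without control replicate 2 (0.28, adjusted p 0.166) or gRNA 2 replicate 2 or 3 (adjusted p 0.0683 and 0.106). ERCC1 spans FOSB on the opposite strand. It was higher in DU145 with gRNA 2 (0.37, adjusted p 0.00383 in edgeR) and gRNA 10 (0.46, adjusted p 0.000789). In PC3, ERCC1 was higher with gRNA 10 (0.63, adjusted p 3.82e-14). FOSB was not called in these contrasts with all libraries in the fit.

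JUN, the partner through which FOS proteins bind DNA, had 512, 444 and 527 counts in the 22Rv1 control, 1134, 1173 and 4156 with gRNA 1 and 713, 739 and 792 with gRNA 10. The groups did not overlap, and gRNA 1 was highest. Its log2 fold change was 2.22 (adjusted p 0.00280 in edgeR, SE 0.46), falling to 1.21 (adjusted p 1.94e-07) without replicate 3. With gRNA 10 the value was 0.54 (adjusted p 0.368, SE 0.45), and without that library 0.55 (adjusted p 0.000110). In DU145, JUN had 1120, 1070 and 1090 counts in the control, 1468, 1333 and 5664 with gRNA 2 and 1047, 1121 and 1055 with gRNA 10. All 3 gRNA 2 libraries were above the control, while gRNA 10 overlapped it. The gRNA 2 value of 1.51 (adjusted p 0.0352, SE 0.49) became 0.39 (adjusted p 0.000797) without replicate 3, and it missed the threshold when any 1 of the control or gRNA 10 libraries was left out (adjusted p 0.0533 to 0.100), with no filter (adjusted p 0.159) and with only the compared groups in the fit (adjusted p 0.0848). In PC3, JUN had 981, 1024 and 974 counts in the control, 1626, 1598 and 1477 with gRNA 2 and 1164, 1121 and 1135 with gRNA 10. It rose with both guides, by 0.64 (adjusted p 3.39e-13, SE 0.05) and 0.15 (adjusted p 0.00598, SE 0.05).

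JUNB, which often opposes JUN in cell proliferation, had 522, 360 and 509 counts in the 22Rv1 control, 743, 672 and 2435 with gRNA 1 and 801, 769 and 762 with gRNA 10. Both knockout groups lay above the control. With gRNA 1 the log2 fold change was 1.56 (adjusted p 0.0143 in edgeR, SE 0.45), 0.60 without replicate 3 (adjusted p 0.00180) and not called without control replicate 2 (1.41, adjusted p 0.0759) or with no filter (adjusted p 0.100). With gRNA 10 it was 0.69 (adjusted p 0.238, SE 0.44), called only without the library that stood apart (adjusted p 0.000239) or when gRNA 1 was left out of the fit (adjusted p 0.000515). In DU145 the control had 1344, 1363 and 1499 counts, gRNA 2 had 1647, 1318 and 2694, and gRNA 10 had 1552, 1920 and 1912. Replicate 2 of gRNA 2 lay just below the lowest control library by CPM and its other replicates above the controls, the gRNA 10 libraries were all above the control, and neither contrast was called (adjusted p 0.118 and 0.213). Without replicate 3 of gRNA 2 the gRNA 10 value of 0.41 was called (adjusted p 0.00293), and without replicate 2 of gRNA 2 the gRNA 2 value was 0.77 (adjusted p 0.0168). In PC3, JUNB fell with gRNA 2, from 1376, 1298 and 1378 counts to 945, 937 and 953 (-0.53, adjusted p 3.45e-11, SE 0.05). With gRNA 10 it had 1285, 1255 and 1365 counts, overlapping the control, and its call (-0.10, adjusted p 0.0487, SE 0.05) was lost with DESeq2 (adjusted p 0.0872) and without control replicate 1 or 3, gRNA 2 replicate 2 or gRNA 10 replicate 1 or 2 (adjusted p 0.0528 to 0.170), and also with no filter or with at least 10 counts in every library (adjusted p 0.0524 and 0.0600). HOOK2, which spans JUNB on the opposite strand, was higher in 22Rv1 with gRNA 1 (0.97, adjusted p 0.00462). It was also higher in PC3 with gRNA 2 (0.21, adjusted p 0.00143), where JUNB fell. In DU145 with gRNA 10 it was lower (-0.35, adjusted p 0.0364), where the JUNB value was 0.41. HOOK2 was not called in the other contrasts with a control.

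JUND had 1573, 1118 and 1636 counts in the 22Rv1 control, 1979, 2018 and 3242 with gRNA 1 and 2073, 2145 and 1960 with gRNA 10. All knockout libraries were above the control. The gRNA 1 value of 0.81 (adjusted p 0.0114 in edgeR, SE 0.22) became 0.46 without replicate 3 (adjusted p 0.00829) and 0.66 without control replicate 2 (adjusted p 0.0600). The gRNA 10 value was 0.46 (adjusted p 0.120, SE 0.22), and 0.46 with an adjusted p of 0.00396 without the library that stood apart. In DU145 the values were below 0: 1555, 1623 and 1803 counts in the control, 1408, 981 and 1471 with gRNA 2 and 985, 1367 and 1336 with gRNA 10. The spread within the groups was wide, and neither value (-0.27 and -0.38) was called, though both were without replicate 3 of gRNA 2 (adjusted p 0.0284 and 0.0247), and the gRNA 10 value also without replicate 2 of gRNA 2 (adjusted p 0.0335). In PC3, JUND fell with gRNA 2, from 1518, 1510 and 1559 counts to 884, 927 and 989 (-0.73, adjusted p 1.05e-13, SE 0.05). With gRNA 10 it had 1430, 1465 and 1602 counts and a log2 fold change of -0.08 (adjusted p 0.153), called without gRNA 10 replicate 3 (-0.12, adjusted p 0.0284). The 3 JUN genes therefore moved apart in PC3 with gRNA 2, where JUN rose while JUNB and JUND fell.

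BATF3, a small factor that pairs with JUN proteins and lacks an activation domain, had the steepest change of any member in PC3. Its counts were 6, 10 and 5 in the control, 2, 3 and 2 with gRNA 2 and 165, 169 and 158 with gRNA 10. The gRNA 10 libraries were far above all others. Over the group, 492 counts against 21 gave a ratio of 22.7 (95% counting interval 14.7 to 37.0), with a fitted log2 fold change of 4.48 (adjusted p 7.98e-19 in edgeR, SE 0.20). BATF3 passed the filter in PC3 through knockout libraries alone, so this call was partly built in. With gRNA 2, 7 counts against 21 gave a ratio of 0.330 (0.119 to 0.806, adjusted p 0.0125), and leaving out control replicate 2 ended that call (adjusted p 0.103). Genes that mark cell identity also differed in those PC3 groups, and the following were named after their values were seen. KDR, a receptor of endothelial growth factor, had 23 to 28 counts in the control, 254 to 274 with gRNA 2 and 856 to 938 with gRNA 10. The prostate antigen KLK3 stayed at 0 or 1 counts in all 9 libraries, as did CDH5 at 0 to 2. The summed endothelial markers (6 of 6 listed) were at 2.98 to 3.73 CPM in the control, 21.4 to 23.6 with gRNA 2 and 47.5 to 53.2 with gRNA 10. That sum followed KDR and PECAM1, which had 34 to 45, 177 to 197 and 121 to 161 counts in turn. VWF, TEK and CLDN5 never passed 4 counts in any PC3 library. The part of these markers in the BATF3 result was not tested.

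In 22Rv1, BATF3 had 40, 29 and 38 counts in the control, 67, 68 and 66 with gRNA 1 and 44, 34 and 38 with gRNA 10. It rose with gRNA 1 (0.96, adjusted p 0.00205 in edgeR, SE 0.19), where the groups did not overlap, and its gRNA 10 value was 0.06 (SE 0.20). In DU145 it had 173, 174 and 184 counts in the control, 168, 130 and 198 with gRNA 2 and 104, 110 and 122 with gRNA 10. Here gRNA 10 was below the control (-0.61, adjusted p 0.0247, SE 0.19), a call that was lost when any 1 of the 6 libraries compared was left out (adjusted p 0.0503 to 0.0859), and gRNA 2 overlapped it. BATF3 and ATF3 are neighbours on chromosome 1, at 212686418 to 212699985 and 212565334 to 212620777 (GRCh38, GENCODE annotation). Of the 10 tested genes nearest to BATF3, 6 were higher and 2 lower in PC3 with gRNA 10, with log2 fold changes from -0.79 to 0.85. The value of BATF3 lay far outside that range. ATF3 itself, one of those neighbours, was at 0.29 (adjusted p 0.124).

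ATF3, a stress-induced repressor and activator of the ATF family, changed little. In 22Rv1 it had 697, 597 and 622 counts in the control, 717, 667 and 703 with gRNA 1 and 898, 907 and 926 with gRNA 10. Only the gRNA 10 group was clear of the control, and it rose by 0.46 (adjusted p 0.00315 in edgeR, SE 0.10). In DU145 the control had 581, 552 and 552 counts, gRNA 2 had 359, 452 and 445, and gRNA 10 had 554, 559 and 576. The gRNA 2 group was lower (-0.34, adjusted p 0.0441, SE 0.11), but this call was lost without any single library other than gRNA 2 replicate 3 (adjusted p 0.0551 to 0.134), with no filter (adjusted p 0.0893) and with only the compared groups in the fit (adjusted p 0.136). Without gRNA 2 replicate 3 it was -0.44 (adjusted p 0.00179). In PC3 ATF3 was low, at 68, 57 and 67 counts in the control, 59, 55 and 56 with gRNA 2 and 64, 69 and 109 with gRNA 10. Neither contrast was called, and without gRNA 10 replicate 1 the gRNA 10 value was 0.43 (adjusted p 0.0296).

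MAFF, a small Maf protein that pairs with NRF and BACH factors as well as FOS proteins, rose with both guides in 22Rv1. It had 88, 50 and 87 counts in the control, 121, 119 and 104 with gRNA 1 and 131, 114 and 134 with gRNA 10. All knockout libraries were above the control, by 0.66 (adjusted p 0.0189 in edgeR, SE 0.20) and 0.70 (adjusted p 0.0166, SE 0.20). The gRNA 10 call was lost without gRNA 10 replicate 1 or 3 (adjusted p 0.0552 and 0.0596), and the gRNA 1 call with only the compared groups in the fit (adjusted p 0.0510). In DU145 it had 322, 395 and 380 counts in the control, 471, 426 and 633 with gRNA 2 and 317, 361 and 350 with gRNA 10. The gRNA 2 group was higher (0.58, adjusted p 0.0297, SE 0.18), 0.33 without replicate 3 (adjusted p 0.0215), and lost its call without control replicate 1, 2 or 3 (adjusted p 0.118, 0.0625 and 0.0701) or with only the compared groups in the fit (adjusted p 0.0755). The gRNA 10 group overlapped the control. In PC3 MAFF had 655, 615 and 648 counts in the control, 567, 505 and 495 with gRNA 2 and 973, 926 and 967 with gRNA 10. It fell with one guide (-0.31, adjusted p 4.94e-05, SE 0.06) and rose with the other (0.53, adjusted p 4.81e-10, SE 0.05), with no overlap between any groups. PLA2G6, which overlaps MAFF on the opposite strand, was also higher in PC3 with gRNA 10 (0.54, adjusted p 2.16e-06) and in 22Rv1 with gRNA 1 (0.93, adjusted p 0.00772).

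The guides were also compared with each other within each line. In 22Rv1, JUN, FOSL2 and BATF3 were higher and ATF3 lower with gRNA 1 than with gRNA 10, beside 35.6% of all genes (18.8% higher and 16.8% lower). In DU145, JUN, FOS, FOSL1, BATF3 and MAFF were higher and FOSL2 and ATF3 lower with gRNA 2, beside 38.8% (19.2% and 19.6%). In PC3, JUN, FOS and FOSL2 were higher and JUNB, JUND, ATF3, BATF3 and MAFF lower with gRNA 2 than with gRNA 10, beside 73.4% (36.5% and 36.9%). The widest gap was that of BATF3 in PC3, at 0.115 ± 0.0284 against 7.90 ± 0.279 CPM (SD, n = 3). In DU145 the gap for FOSL1 was 344 ± 181 against 71.4 ± 2.54 CPM. Removing 1 gRNA 10 library of DU145 reduced the members called between the guides from 7 to 2, and removing gRNA 10 replicate 1 or 2 of 22Rv1 reduced them from 4 to 2. The share of all genes called in those refits is not given here, so these drops are not a result about the members.

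Whether the knockout effect (mean of both guides minus control) differed between lines was tested in 1 model of all 27 libraries. It was higher in 22Rv1 than in DU145 for JUND, FOSL2, ATF3 and BATF3, beside 47.1% of all genes (23.5% higher and 23.6% lower). It was higher in 22Rv1 than in PC3 for JUNB, JUND, FOSL1, FOSL2 and MAFF, beside 45.3% (23.3% and 22.0%), and lower in DU145 than in PC3 for BATF3, beside 42.2% (21.3% and 20.9%). FOSL2 gave differences of 0.87 (adjusted p 1.13e-06 in edgeR, SE 0.12) and 1.02 (adjusted p 9.59e-08, SE 0.12) on the log2 scale, and 0.15 (adjusted p 0.225, SE 0.10) between DU145 and PC3. JUND gave 0.96 (adjusted p 0.00116, SE 0.23) and 1.05 (adjusted p 0.000503, SE 0.23): its knockout libraries were above the control in 22Rv1, and below or overlapping it in the other lines. The FOSL1 difference of 3.23 (adjusted p 0.0189) is a fitted value that rests on 2 control counts in 22Rv1, and was lost without control replicate 1 (2.72, adjusted p 0.0706) or gRNA 1 replicate 3 (2.93, adjusted p 0.101). That of MAFF (0.58, adjusted p 0.0227) was lost without control replicate 2 (0.36, adjusted p 0.148). Without the pair of libraries that stood apart, 9 members differed between 22Rv1 and DU145 (9171 of 16490 genes), all but FOSB and all higher in 22Rv1. In the same fit 7 were higher in 22Rv1 than in PC3 (9046 genes), and JUNB, FOSL1 and FOSL2 were higher and BATF3 lower in DU145 than in PC3 (8924 genes).

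In the pair of libraries that stood apart, members were among the genes farthest above their replicates. FOSB and FOS ranked first and second by ratio to the mean of the other two replicates in 22Rv1 gRNA 1, among 11175 genes with a mean of at least 100 counts over the 3 libraries, at 52.0-fold and 46.1-fold. They ranked first and second of 11087 genes in DU145 gRNA 2 as well, at 41.1-fold and 21.1-fold, but of these 4 places only that of FOS in 22Rv1 did not depend on replicate 3 itself to pass the floor of 100 counts. JUN was 3.99-fold and 4.55-fold above its replicates, JUNB 3.82-fold and 2.04-fold, and FOSL1 2.71-fold (11 counts) and 2.30-fold. In each library 9 of the 10 members were above both other replicates and 5 were at least 2-fold up. Of the genes ranked, 39.1% and 43.6% were above both replicates, and 3.98% and 0.929% were 2-fold up. MAFF in 22Rv1 (0.961-fold) and FOSL2 in DU145 (0.869-fold) were the members below both replicates by CPM. Other immediate early genes moved with them: 20 and 18 of 23 were above both replicates, 7 and 8 of them at least 2-fold, and EGR1, a zinc finger factor induced by the same signals and named here after its values were seen, was 11.2-fold and 9.32-fold up.

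**Figure D4:**
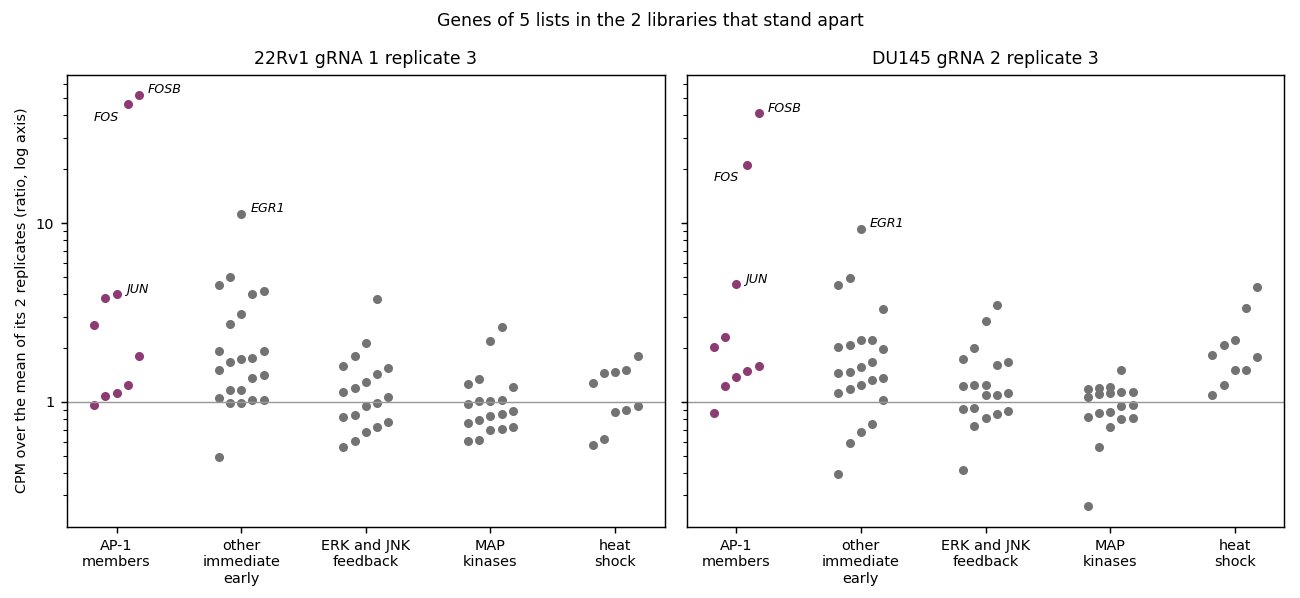
CPM in each of the 2 libraries that stand apart, divided by the mean of its 2 replicates (log axis), for the members and 4 gene lists, with one point per gene and a line at a ratio of 1. FOSB and FOS lie highest in both panels, EGR1 is next, and the MAP kinases are scattered around 1.

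Kinases and feedback genes of the pathway were nearer to their replicates. Of 19 MAP kinases and their nuclear targets, 5 and 7 were above both replicates. In the 22Rv1 library 2 of these were at least 2-fold up, and in the DU145 library 0 were and 1 was at least 2-fold down. Of 19 feedback genes, 10 and 11 were above both replicates, with 2 at least 2-fold up in each library and 1 at least 2-fold down in DU145. Of the heat shock genes, 5 of 10 were above both replicates in 22Rv1 and 9 of 10 in DU145, where 4 were at least 2-fold up. The genes that span FOSB and JUNB on the opposite strand showed smaller ratios than those members: ERCC1, which spans FOSB, was at 1.32 and 1.05, and HOOK2, which spans JUNB, at 1.86 and 0.865. PLA2G6, which overlaps MAFF on the opposite strand, was at 1.96 and 0.766, a larger ratio than that of MAFF in 22Rv1 and a smaller one in DU145. Whether the counting used strand is not given in the sources used here, so reads of each such pair of genes may be split uncertainly.

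**Figure D5:**
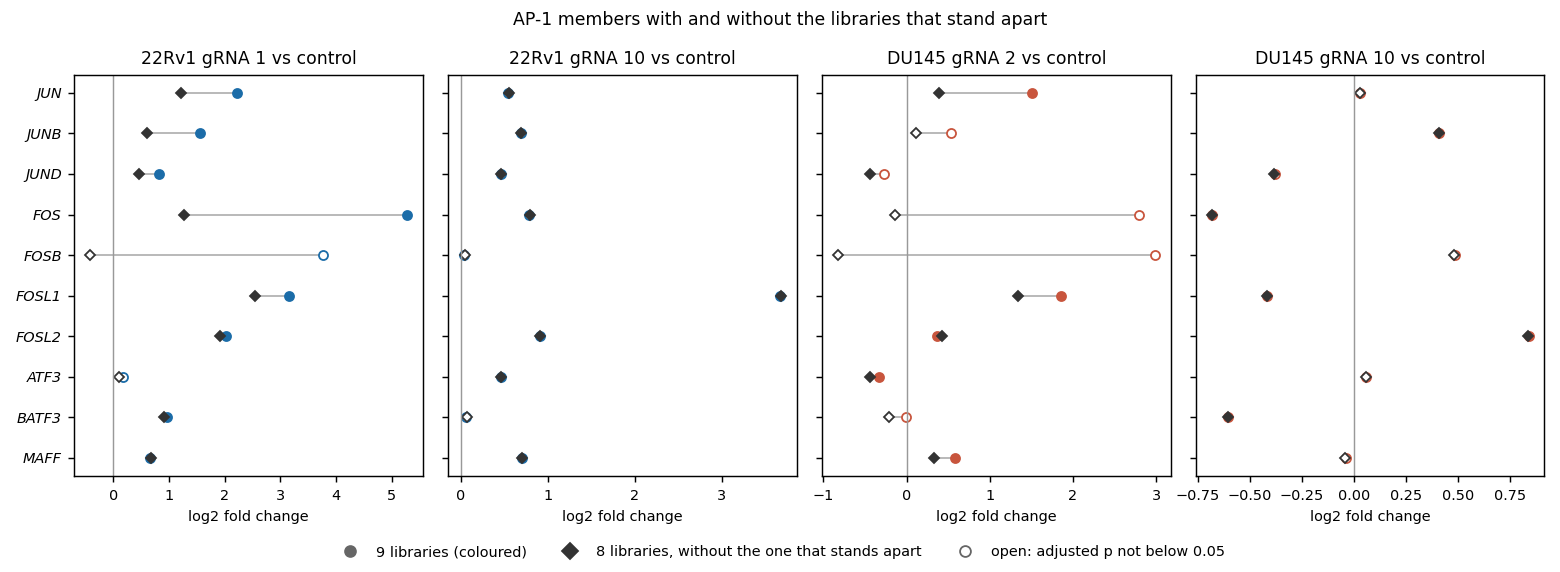
Log2 fold changes of the members with all 9 libraries of a line (coloured circles) and without the library that stands apart (black diamonds); filled symbols have an adjusted p below 0.05 and the x axes differ. FOSB and FOS cross or approach 0 in the guide group that holds the library, and with gRNA 10 the diamonds lie on the circles, several of them filled where the circle is open.

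Leaving out these libraries also changed calls in contrasts that do not hold them. With gRNA 10 the members called went from 4 to 8 in 22Rv1 (58.3% of all genes then called) and from 2 to 6 in DU145 (58.4%), while JUN, for example, went only from 0.54 to 0.55 in 22Rv1 and FOS from -0.68 to -0.68 in DU145. There the library left out enters only the scaling, the filter and the estimate of the spread. With the first guide 8 members were called in 22Rv1 (54.6%), all of them higher, and 6 in DU145 (45.8%), with JUN, FOSL1, FOSL2 and MAFF higher and ATF3 and JUND lower.

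Genes around AP-1 were counted in lists named for their role, and those named were called in one direction with each guide. For the first guide and gRNA 10 in turn, the share of all genes called was 48.5% and 40.6% in 22Rv1, 34.0% and 40.0% in DU145, and 63.6% and 73.5% in PC3. Without the library that stood apart it was 54.6% and 58.3% in 22Rv1 and 45.8% and 58.4% in DU145. The feedback genes of ERK and JNK signalling are induced by MAP kinase activity, and most of them, though not ETV4, dampen it. They were mostly higher in 22Rv1. With gRNA 1, 14 were higher and 2 lower of 19 (median log2 fold change 0.99, against 0.02 over all genes). With gRNA 10, 11 were higher and 2 lower (0.52). ETV4, an ETS factor downstream of ERK, rose by 3.05 and 1.85, and DUSP6, the phosphatase of ERK, by 2.34 and 1.75. DUSP10, a phosphatase of JNK and p38, fell to log2 fold changes of -2.62 and -4.02. In DU145 the list had 12 higher and 2 lower with gRNA 2 (median 0.50) and 2 higher and 4 lower with gRNA 10 (median -0.02; 6 and 9 without the library that stood apart), and in PC3 it had 4 higher and 7 lower, then 6 and 8. SPRY2, an inhibitor of receptor tyrosine kinase signalling, fell in DU145 with both guides (-0.58 and -0.98).

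Other immediate early genes were also mostly higher in 22Rv1, with 18 higher and 4 lower of 23 with gRNA 1 (median 1.20) and 9 higher and 3 lower with gRNA 10 (median 0.57). Without the library that stood apart the gRNA 1 count was 16 higher and 4 lower, with a median of 0.75, and the gRNA 10 count 14 and 5, with a median of 0.57. CCN2, a matricellular growth factor, rose by 4.88 and 2.28, and the orphan receptor NR4A1 by 1.37 and 1.69. In DU145 the list had 10 higher and 3 lower with gRNA 2 (median 0.54) and 10 higher and 4 lower with gRNA 10 (median 0.43), which without the library that stood apart became 10 and 7 of 24 (0.13) and 13 and 8 (0.33), with KLF2, a Krüppel-like factor, up by 2.88 and 2.58. In PC3 it had 8 higher and 10 lower, then 9 higher and 7 lower, of 21. CCN1 rose there by 2.06 and 0.96, and PPP1R15A, a phosphatase subunit of the stress response, fell to -0.56 and -0.42.

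Genes commonly listed as AP-1 targets were higher more often than lower in 22Rv1 (11 and 4 of 19 with gRNA 1, 9 and 2 with gRNA 10) and in DU145 with gRNA 2 (15 and 2 of 26), and in DU145 with gRNA 10 as often higher as lower (8 and 8). AREG, an EGF receptor ligand, rose in 22Rv1 by 5.62 and 2.91, while the membrane protease MMP14 fell to -2.37 and -3.81. TNC, the matrix protein tenascin C, rose in 22Rv1 by 2.35 and 2.46 and in DU145 by 5.02 and 2.12. The chemokine CXCL8 rose in DU145 by 3.23 and 2.24 and fell in PC3 to -1.39 and -1.16. In PC3 the list had 14 higher and 8 lower of 30 with gRNA 2, beside 63.6% of all genes called in either direction, and 13 and 15 with gRNA 10, beside 73.5%. The collagenase MMP1 fell there to -0.57 and -1.93.

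Partners from the wider bZIP family split in 22Rv1 (6 higher and 7 lower of 20, then 3 and 3, the latter 7 and 5 without the library that stood apart). In DU145 with gRNA 2, 7 were higher and 3 lower of 18 (median 0.16). Without the library that stood apart that count was 10 and 4 (median 0.31). With gRNA 10 in DU145 it was 4 and 4, and 5 and 6 without that library. In PC3, 13 of 18 were lower and 3 higher with gRNA 2 (median -0.35), against 4 lower and 6 higher with gRNA 10 (median 0.02). MAFK, the close relative of MAFF, rose in 22Rv1 by 1.20 and 1.82. CREB5, which can pair with JUN, fell in PC3 to -1.57 and -2.41. The MAP kinases that act on AP-1 had 2 higher and 4 lower of 19 in 22Rv1 with gRNA 1, 4 and 5 with gRNA 10, 1 and 1 in DU145 with gRNA 2 and 4 and 2 with gRNA 10. Without the library that stood apart the DU145 counts were 4 and 3, then 7 and 2. MAPK8, which encodes the JNK that phosphorylates JUN, fell in 22Rv1 to -0.73 and -0.55. In PC3, 5 were higher and 4 lower of 20 with gRNA 2, and 11 and 5 with gRNA 10, with MAPK9, another JNK gene, up by 0.66 and 0.91. Of 10 heat shock genes, 0 were higher and 2 lower in 22Rv1 with gRNA 1, and 1 and 4 with gRNA 10. In DU145, 4 were higher and 1 lower with gRNA 2 and 2 and 0 with gRNA 10, which became 4 and 4, then 4 and 2, without the library that stood apart. HSPA1A rose in DU145 by 2.29 and 1.48. In PC3 the heat shock list had 1 higher and 7 lower of 10 with gRNA 2, and 4 and 5 with gRNA 10. The summed fibroblast markers (7 of 8 listed) were 10.6 to 12.2 CPM in the 22Rv1 control, 15.3 to 32.9 with gRNA 1 and 26.9 to 28.5 with gRNA 10. COL1A1 had 145 to 185, 212 to 489 and 419 to 470 counts in turn, while PDGFRA had 8 to 20, 3 to 7 and 0 to 1. Of the 4 tested, 2 were called higher and 0 lower with gRNA 1, and 3 and 0 with gRNA 10. The summed epithelial markers (5 of 5) were 892 to 944 CPM in the DU145 control, 1634 to 3063 with gRNA 2 and 1539 to 1664 with gRNA 10. From the control to gRNA 10, KRT8 went from 8598 to 9031 counts to 16418 to 18848. KRT18 went from 6271 to 6640 counts to 10773 to 11166. EPCAM was lower with gRNA 10 (595 to 728 counts, control 1169 to 1244), as was CDH1 (286 to 318, control 368 to 496). Of these 5 markers, 2 were called higher with gRNA 10 and 0 lower. The part of these markers in these results was not tested.

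Similarity of pattern was measured by Pearson's r over the 9 group means of log2 CPM, among genes with at least 100 counts on average. These 9 points share lines and controls, so r mostly follows the differences between lines and is given without a test. FOSL1 was most like PPP1R18 (0.998) and SEMA7A (0.996), and MAFF most like ARHGEF28 and PCDHGB5 (both 0.990). Among the members themselves FOSL1 and MAFF were the closest pair, at 0.982. FOSL2 was closest to CCN1 (0.983) and HABP4 (0.982), and JUNB to TUBG2 (0.970) and CERS5 (0.947), with FOSL2 the nearest member of JUNB at 0.881. ATF3 was most like ALDH16A1 (0.994) and CEP152 (0.992), and BATF3 most like ORMDL2 (0.970) and EMID1 (0.958). JUN had no gene closer than PISD (0.888) and CRYZ (0.862), which became CCN2 (0.960) and MYG1 (0.925) without the pair of libraries that stood apart. FOS moved from KRIT1 (0.953) and MDM1 (0.949) to SNHG15 (0.983) and MRPL32 (0.982), and FOSB from G6PC3 (0.944) and PICK1 (0.936) to TEKT4P2 (0.975) and KPTN (0.969). JUND was closest to SLC4A2 (0.958) and COG7 (0.936).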

How the data were processed

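Bulk mRNA of 27 libraries (3 lines, 3 groups each, 3 libraries per group) was sequenced, and the authors deposited 1 table of raw counts per gene symbol and line. Per the submitters' processing notes, FastQC, STAR and edgeR were used with build hg38; the counting tool, its annotation and its use of strand are not given in the sources used here. Samples were grouped by their labels, and every value column was used. Rows sharing a symbol were summed.

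Within each line, edgeR 4.0.16 (R 4.3.3) fitted the 9 libraries with group as the only term: TMM scaling, filterByExpr (minimum count 10, minimum total 15), a robust quasi-likelihood F test, and Benjamini-Hochberg adjustment over all genes tested (15198 in 22Rv1, 14908 in DU145, 14718 in PC3), called below 0.05. Controls of different lines, and differences in knockout effect, were tested in 1 fit of all 27 libraries over 16322 genes. CPM uses TMM-scaled totals. Counting intervals are 95% and exact, and they and the floor of 3 counts cover counting error only. The scripts were tested on simulated data. Alternatives were DESeq2 1.42.0, its scaling, other filters, a replicate block, fits of the compared groups alone, and leaving out libraries. The list counts and most similar genes without the 2 libraries that stand apart were added after seeing the data.

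All 10 members and RIPK2 are named. From each list and line, at most 2 rising and 2 falling genes are named, by the smaller change of both guides, among genes called in one direction with each guide and with a mean of at least 100 counts in 1 group. The 2 genes most like each member are named by Pearson's r. The members and lists were chosen with earlier results of these data known. Promoters came from RefSeq (GRCh38.p14), and gene positions and lengths from the GENCODE annotation of GRCh38. The result of 1 marker list is not reported here.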

Additional observations from a re-analysis of the deposited data

Results flagged for a closer look

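The following members were flagged because their knockout effect (mean of both guides minus control, log2 scale) differed between 2 cell lines by edgeR's quasi-likelihood test in the model of all 27 libraries. JUND was higher by 0.96 in 22Rv1 than in DU145 and by 1.05 than in PC3 (adjusted p 0.00116 and 0.000503). FOSL2 was higher by 0.87 and 1.02 in the same comparisons (adjusted p 1.13e-06 and 9.59e-08). ATF3 (0.45, adjusted p 0.0111) and BATF3 (0.81, adjusted p 0.00355) were higher in 22Rv1 than in DU145. JUNB (1.46, adjusted p 0.0105), FOSL1 (3.23, adjusted p 0.0189) and MAFF (0.58, adjusted p 0.0227) were higher in 22Rv1 than in PC3. BATF3 was lower in DU145 than in PC3 (-1.75, adjusted p 0.000839), where its 2 guides gave opposite changes. The FOSL1 call was lost without 22Rv1 control replicate 1 (2.72) or gRNA 1 replicate 3 (2.93), and the MAFF call without 22Rv1 control replicate 2 (0.36).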

How the results depend on the processing

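Over the alternatives to 106 results, 1913 values kept their direction and side of the threshold, 104 lost a call, 36 gained one and 18 turned direction. With a single replicate left out, the number of members called ranged from 5 to 9 (22Rv1 gRNA 1), 3 to 8 (22Rv1 gRNA 10), 2 to 7 (DU145 gRNA 2), 1 to 6 (DU145 gRNA 10), 7 to 9 (PC3 gRNA 2) and 6 to 8 (PC3 gRNA 10) against the control. Between guides it ranged from 2 to 6 in 22Rv1, 2 to 9 in DU145 and 6 to 8 in PC3. Between controls it was 5 to 7 (22Rv1 and DU145), 6 to 7 (22Rv1 and PC3) and 5 to 5 (DU145 and PC3), and for differences in knockout effect 4 to 7, 4 to 6 and 1 to 2. With only the compared groups in the fit, 5 members were called for 22Rv1 gRNA 1, 7 for 22Rv1 gRNA 10, 2 for DU145 gRNA 2, 6 for DU145 gRNA 10 and 3 between the DU145 guides. Without the 2 libraries that stand apart, 8 were called for 22Rv1 gRNA 10, 6 for DU145 gRNA 10, 9 for the difference in effect between 22Rv1 and DU145 and 4 between DU145 and PC3. With no filter, DU145 gRNA 2 had 3 calls. With at least 10 counts in every library, PC3 gRNA 10 had 4, the DU145 and PC3 controls 3, and their difference in effect 0, as BATF3, the 1 member called there, was then not tested. The replicate block left 3 calls for DU145 gRNA 2. The member counts of these refits are given without the share of all genes called beside them. They show dependence on the processing and are not a result about the members. Against the control the replicate block ended the calls of FOS in 22Rv1 with gRNA 1 (3.90, adjusted p 0.125 by edgeR) and of JUN (1.22, adjusted p 0.0573) and ATF3 (-0.34, adjusted p 0.0623) in DU145 with gRNA 2. Replicate numbers did not pair the libraries: correlations of same-numbered deviations ran from -0.081 to 0.339 in 22Rv1, -0.189 to 0.073 in DU145 and -0.049 to 0.062 in PC3. Directions turned in the following cases, and the cause was not tested. FOSB became -0.41 (22Rv1 gRNA 1) and -0.82, and FOS -0.14 (DU145 gRNA 2), without the library that stands apart. FOSB in 22Rv1 with gRNA 10 became -0.03 without control replicate 1 and -0.070 without gRNA 10 replicate 3, and in PC3 with gRNA 10 -0.018 without control replicate 2. BATF3 in 22Rv1 with gRNA 10 became -0.064 without control replicate 2 and -0.04 without gRNA 10 replicate 1. BATF3 in DU145 with gRNA 2 became 0.021 with no filter, 0.016 with only the compared groups, 0.035 without control replicate 3, and 0.015 and 0.18 without gRNA 2 replicate 1 or 2. MAFF in DU145 with gRNA 10 became 0.013 without control replicate 2 and 0.0098 without gRNA 10 replicate 1. With 1 library left out at a time these values ran up to 4.31 for FOSB (22Rv1 gRNA 1), 0.14 for FOSB and 0.15 for BATF3 (22Rv1 gRNA 10), 3.33 for FOS and 3.55 for FOSB (DU145 gRNA 2) and 0.17 for FOSB (PC3 gRNA 10), and down to -0.22 for BATF3 (DU145 gRNA 2) and -0.13 for MAFF (DU145 gRNA 10).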
